A study of Mus musculus with 77 samples.

Results

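T-box genes were followed through every peak list of the series, 10 in number: Tbx21, Eomes, Tbx1, Tbx2, Tbx3, Tbx4, Tbx5, Tbx6, Tbx15 and Tbx18. They were taken by name, 10 of the 34328 genes of the supplied RefSeq table for GRCm38.p6 (mm10), and each was read over its body and 2 kb on either side. The data are CUT&RUN profiles of 3 histone marks, in which an antibody guides a nuclease to marked nucleosomes and the freed DNA is sequenced, in splenic CD23+ B cells of female mice. Xist, the RNA that silences 1 X chromosome in female cells, was the gene deleted. Cells of the mb1-cre system came from Xist fl/fl or WT mice, and both genotypes carried mb1-cre, a Cre driven by the Cd79a locus in the B lineage. Cells of the TAT-Cre system came from Xist fl/fl or WT mice, and those cultured for 24 h, of either genotype, were first given 80 µg of a cell-permeant Cre for 45 min. In both systems the cells were profiled after 24 h in 1 µM CpG, which triggers the Toll-like receptor Tlr9, or unstimulated at 0 h. TAT-Cre cells at 0 h had met no Cre and serve as a baseline, so the 24 h against 0 h comparison of that system also holds the enzyme, and in both systems it holds the culture.

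T-box genes encode transcription factors that share a DNA-binding domain, the T-box. Tbx21 encodes T-bet, the factor of type 1 helper T cells and natural killer cells, which B cells induce after Tlr9 ligands and interferon gamma and which directs switching to IgG2a. Eomes is its closest relative in CD8 T cells and natural killer cells. The others pattern the embryo and are silent in most adult blood cells. Such genes are typical targets of the Polycomb complexes, of which PRC2 places H3K27me3 and PRC1 places H2AK119Ub, while H3K27ac marks active promoters and enhancers.

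The start regions of 3 members that took different courses are shown first: Tbx21, under both Polycomb marks, Eomes, filled by H3K27me3 in nearly every library, and Tbx6, the one member with H3K27ac. They run from 250 bases before to 50 bases after the start in the direction of transcription and come from RefSeq for GRCm38.p6. They lie at chr11:97115282-97115581 (minus strand), chr9:118477939-118478238 (plus strand) and chr7:126781233-126781532 (plus strand). Capitals mark CpG dinucleotides, at which Polycomb complexes are known to gather when unmethylated.
Tbx21: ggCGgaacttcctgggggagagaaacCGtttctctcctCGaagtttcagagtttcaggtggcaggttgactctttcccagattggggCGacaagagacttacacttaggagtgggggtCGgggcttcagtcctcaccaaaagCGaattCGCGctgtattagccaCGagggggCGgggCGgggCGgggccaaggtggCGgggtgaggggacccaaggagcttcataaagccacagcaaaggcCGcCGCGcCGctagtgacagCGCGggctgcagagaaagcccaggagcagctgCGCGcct
Eomes: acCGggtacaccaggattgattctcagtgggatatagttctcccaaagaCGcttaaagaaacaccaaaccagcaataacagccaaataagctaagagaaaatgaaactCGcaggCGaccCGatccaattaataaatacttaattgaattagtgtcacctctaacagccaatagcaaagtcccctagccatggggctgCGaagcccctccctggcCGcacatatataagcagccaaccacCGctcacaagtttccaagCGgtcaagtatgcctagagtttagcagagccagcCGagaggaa
Tbx6: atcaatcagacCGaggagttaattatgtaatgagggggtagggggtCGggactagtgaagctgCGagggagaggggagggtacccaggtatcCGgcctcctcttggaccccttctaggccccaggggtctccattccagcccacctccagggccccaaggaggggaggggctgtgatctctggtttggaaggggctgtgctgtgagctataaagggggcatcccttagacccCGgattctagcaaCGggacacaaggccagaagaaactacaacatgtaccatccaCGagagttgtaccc
The Tbx21 start region holds 21 CpG in 300 bases, a ratio of observed to expected CpG of 0.754, and 62.0% G and C. Eomes holds 10 CpG (ratio 0.607) and Tbx6 holds 7 (ratio 0.286), beside a median of 7 CpG and a ratio of 0.387 over 32619 start regions of the table. Of the other members in the table, Tbx1 holds 26 and 16 CpG at its 2 starts, Tbx18 holds 15 and Tbx4 holds 8. The T-box core motif TCACACCT, or AGGTGTGA on the other strand, was in 0 of the start regions of the 6 members matched and in 1.285% of all.

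The 77 libraries comprised 29 for H3K27me3, 24 for H2AK119Ub and 24 for H3K27ac, in groups of 3, or of 4 and 5 for H3K27me3 in the mb1-cre system. Peaks per list, on the autosomes and the X chromosome, numbered 1950 to 18954, 1999 to 40486 and 1329 to 10304. The lists were longer at 24 h, with medians of 8644 against 5127 peaks for H3K27me3, 25055 against 17698.5 for H2AK119Ub and 7827 against 3163 for H3K27ac, except that TAT-Cre H3K27me3 lists had medians of 6081 at 24 h and 12842.5 at 0 h. The sources used here do not give read depth, which cannot be told apart from the length of a list. All 10 lists under 3000 peaks (3, 4 and 3 for H3K27me3, H2AK119Ub and H3K27ac) were 0 h lists. The cells carried the chromatin of B cells: all 12 B cell marker genes had an H3K27ac peak in all 24 libraries and none had an H3K27me3 peak. H2AK119Ub peaks lay at a mean of 60.4% of these B cell genes at 24 h and 12.5% at 0 h. Over all protein-coding genes the means for H2AK119Ub were 47.7% and 30.2%. H3K27ac peaks lay at a mean of 13.2% of 12 T cell, 11.7% of 10 natural killer cell and 1.67% of 10 myeloid marker genes at 24 h, against 10.4%, 0% and 0% at 0 h. The part of such cells in the values below was not tested.

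H3K27me3 covered 9 of the 10 members in both resting and stimulated cells, and Tbx6 had no H3K27me3 peak in any of 29 libraries. Around Eomes and Tbx3 the mark filled the window. Eomes was covered by 98.9% ± 3.0 at 24 h and 99.1% ± 2.5 at 0 h (SD, n = 14 and 15 libraries), and Tbx3, a repressor in the limb and heart, by 97.0% ± 5.4 and 98.6% ± 5.4. Tbx2, the relative of Tbx3, was covered by 92.6% ± 10.1 and 92.4% ± 14.0. Its neighbour on chromosome 11, Tbx4, which acts in the hind limb, was covered by 70.3% ± 20.1 and 69.9% ± 13.1. In TAT-Cre WT cells the 3 Tbx4 libraries at 24 h (45.4% ± 0.66) lay below the 3 at 0 h (70.1% ± 2.2), with an exact two-sided permutation p of 0.1, the smallest that 3 against 3 can give. In mb1-cre cells the Tbx4 means lay the other way, with overlap. They were 89.8% at 24 h and 74.4% at 0 h in WT cells, and 79.6% and 70.5% in Xist fl/fl cells. The part of list length in these values was not tested. The bodies of Tbx2 and Tbx4 lie 44.4 kb apart, and 1 peak reached both in 2 of 14 libraries at 24 h and 4 of 15 at 0 h. Long genes were marked in part. In Tbx5, a forelimb and heart factor, the covered share was 41.7% ± 6.8 at 24 h and 40.6% ± 3.3 at 0 h, and in Tbx15, which patterns skin and skeleton, 24.2% ± 2.1 and 24.0% ± 0.9. Cut into 5 equal parts by coordinate, the Tbx15 window was covered by 100% and 20.9% in the 2 parts of lowest coordinate and by 0% in the other parts at 24 h. Tbx18, of the epicardium and somites, was covered by 27.5% ± 5.7 and 28.2% ± 8.6, and counted from its start the 5 parts held 93.4%, 44.0%, 0%, 0% and 0% at 24 h. In each of these genes the means over all libraries at 24 h and 0 h differed by less than 1 SD of the libraries.

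**Figure D1:**
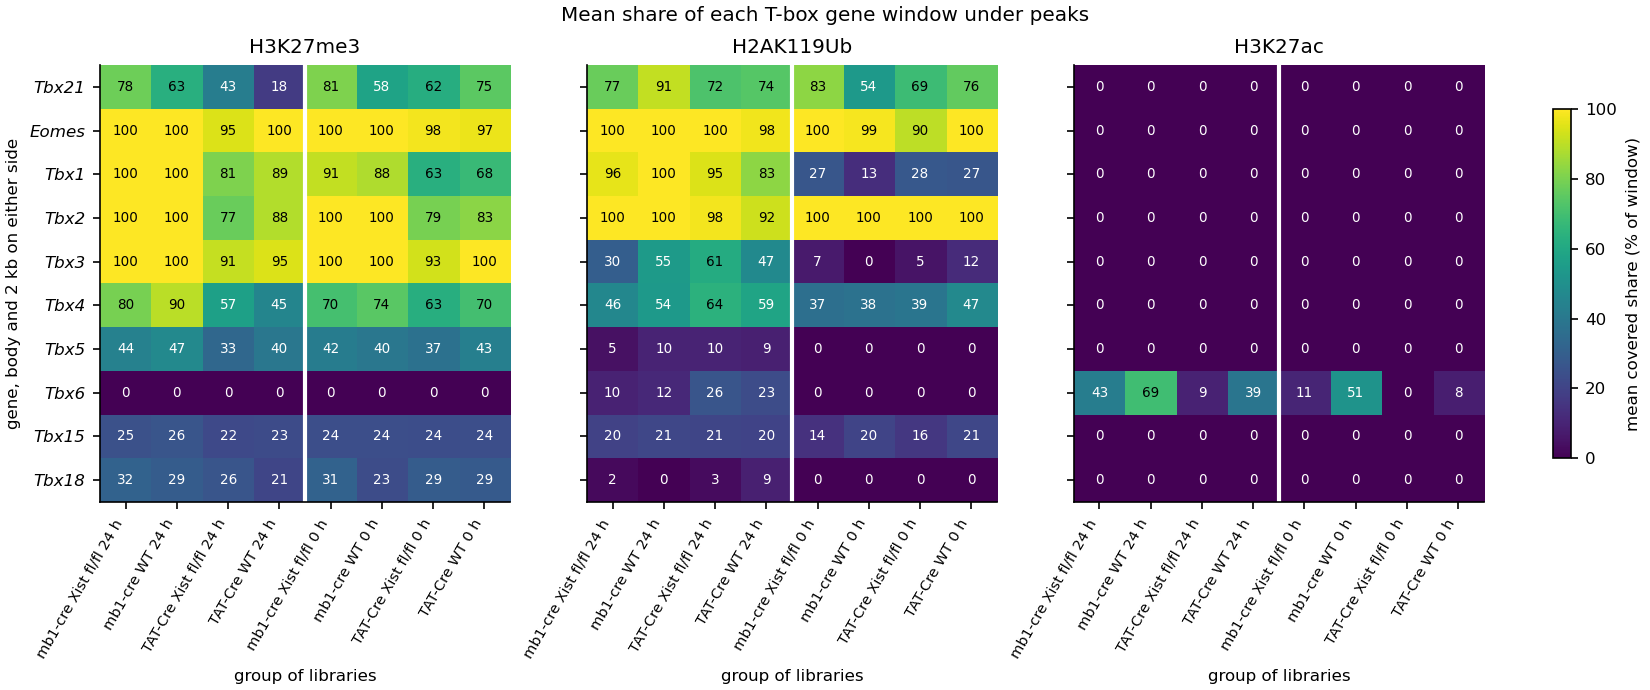
Mean percent of each member's window (gene body and 2 kb on either side) under peaks, by mark and by group of libraries, with the 4 groups at 24 h left of the white line and the 4 at 0 h right of it. H3K27me3 is near 100% at Eomes and Tbx3 in all groups and 0 at Tbx6, H2AK119Ub at Tbx1 is high in the 24 h groups, and H3K27ac is above 0 only at Tbx6.

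Tbx21 (chr11:97098007-97115331, minus strand, gene 57765) was the member whose H3K27me3 varied most between libraries. Its covered share ranged from 0% to 100% with a median of 57.5% at 24 h, and from 30.8% to 100% with a median of 71.9% at 0 h. A peak was present in 13 of 14 libraries at 24 h and 15 of 15 at 0 h, and the start itself was covered in 9 of 14 and 9 of 15. The signal share, which is the part of a list's autosomal peak signal that lies in the window, ranged from 0 to 244 ppm (median 79.0) at 24 h and from 64.9 to 394 ppm (median 131) at 0 h. The times thus overlapped. The log2 difference of signal share (24 h minus 0 h, with 1 ppm added) was -1.29 ± 0.50 (SE), with an unadjusted p of 0.0156 and a Benjamini-Hochberg adjusted p of 0.163 by limma over 11663 genes, so it did not pass. In TAT-Cre WT cells the values were 23.4%, 0% and 29.2% of the window at 24 h, against 88.2%, 71.9% and 64.8% at 0 h. These 3 libraries lay below all 3 of their baseline, a mean difference of -57.4 percentage points with an exact two-sided permutation p of 0.1, the smallest that 3 against 3 can give. In TAT-Cre Xist fl/fl cells the values were 38.5%, 84.6% and 4.57% at 24 h and 62.3%, 86.8% and 37.8% at 0 h (exact p = 0.5), which overlap. In the mb1-cre system the means were 77.8% at 24 h and 80.5% at 0 h in Xist fl/fl cells (exact p = 0.881), and 63.0% and 57.9% in WT cells (exact p = 0.83). The TAT-Cre WT lists held 5764, 3959 and 5010 peaks at 24 h and 3885, 13234 and 18954 at 0 h, and the shortest of them, replicate 1 of 0 h, had the widest Tbx21 coverage. The part of list length in the Tbx21 values was not tested.

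For H3K27me3 as a whole, 0 of the 9 members tested passed between 24 h and 0 h, where 3.35% of all 11663 genes did. Their median log2 difference was 0.10, beside 0.35 over all genes. Tbx1, a factor of the pharyngeal arches and cardiac outflow tract, ranged from 107 to 309 ppm (median 188) at 24 h and from 82.7 to 237 ppm (median 157) at 0 h. Its log2 difference was 0.38 ± 0.15 (limma adjusted p = 0.175), and in lists cut by total signal to as many peaks as the mark's shortest list (below, trimmed lists) it was 2.91 (adjusted p = 0.00052, where 3.95% of 4892 genes passed). None of the 3 TAT-Cre WT lists at 0 h kept a Tbx1 peak after trimming, so they entered that fold at 0 ppm. In mb1-cre WT cells Tbx1 was covered by 100% in all 4 libraries at 24 h and by 98.2%, 58.0%, 97.7% and 98.2% at 0 h, with no overlap (exact permutation p = 0.0286, unadjusted). The value of 58.0% came from a list of 2704 peaks. In mb1-cre Xist fl/fl cells Tbx1 was covered by 100% in all 4 libraries at 24 h and by 58.3% to 100% at 0 h, which overlap. In the exact test of peak presence in trimmed lists, a rank within each list, 0 of 3 members tested passed (1.28% of 3436 genes did). Tbx1 was among the strongest peaks in 14 of 14 lists at 24 h and 11 of 15 at 0 h (adjusted exact p = 0.433).

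The change of H3K27me3 with stimulation differed between the systems at 3 members, Tbx1, Eomes and Tbx15, where the TAT-Cre change lay above the mb1-cre change. Tbx1 held 200.2 to 309 ppm (median 238) in TAT-Cre cells at 24 h and 101 to 159 ppm (median 142) at 0 h, so all 6 stimulated libraries lay above all 6 at baseline. In mb1-cre cells it held 107 to 192 ppm (median 147) at 24 h and 82.7 to 237 ppm (median 169) at 0 h, which overlap. The difference of the changes was 0.95 ± 0.30 log2 (limma adjusted p = 0.0287). Eomes held 199.97 to 379 ppm (median 269) at 24 h and 157 to 391 ppm (median 166) at 0 h in TAT-Cre cells, and 117 to 168 ppm (median 136) and 125 to 310 ppm (median 196) in mb1-cre cells. Its difference of changes was 0.96 ± 0.31 (adjusted p = 0.0292). Tbx15 held 527 to 1308 ppm (median 737) and 475 to 1250.3 ppm (median 534) in TAT-Cre cells, and 397 to 557 ppm (median 489.6) and 484 to 972 ppm (median 661) in mb1-cre cells, a difference of 0.72 ± 0.25 (adjusted p = 0.0433). Of all 11663 genes 23.5% passed in this comparison and 3.64% in this direction, and the median over all genes was -1.48, against 0.65 over the members. Tbx21 pointed the other way, at -1.38 ± 0.99 (adjusted p = 0.292), and at 1.64 in trimmed lists. List length moved in opposite directions with time in the 2 systems, with medians of 6081 and 12842.5 peaks at 24 h and 0 h in TAT-Cre cells and 12622.5 and 4915 in mb1-cre cells. In trimmed lists Tbx1 passed (5.14, limma adjusted p = 0.0047, where 0.715% of genes did), while Eomes (0.57, adjusted p = 0.249) and Tbx15 (0.14) did not. None of the 3 TAT-Cre WT lists at 0 h kept a Tbx1 peak after trimming. They entered at 0 ppm there, against 134 to 159 ppm in the lists as deposited. Measured as covered percent, Tbx1 (8.67 percentage points, limma adjusted p = 0.589) did not pass, and Eomes and Tbx15 turned to -0.42 and -2.75. Without TAT-Cre WT replicate 2 of 0 h, or of 24 h, 0 of the 3 members passed.

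**Figure D2:**
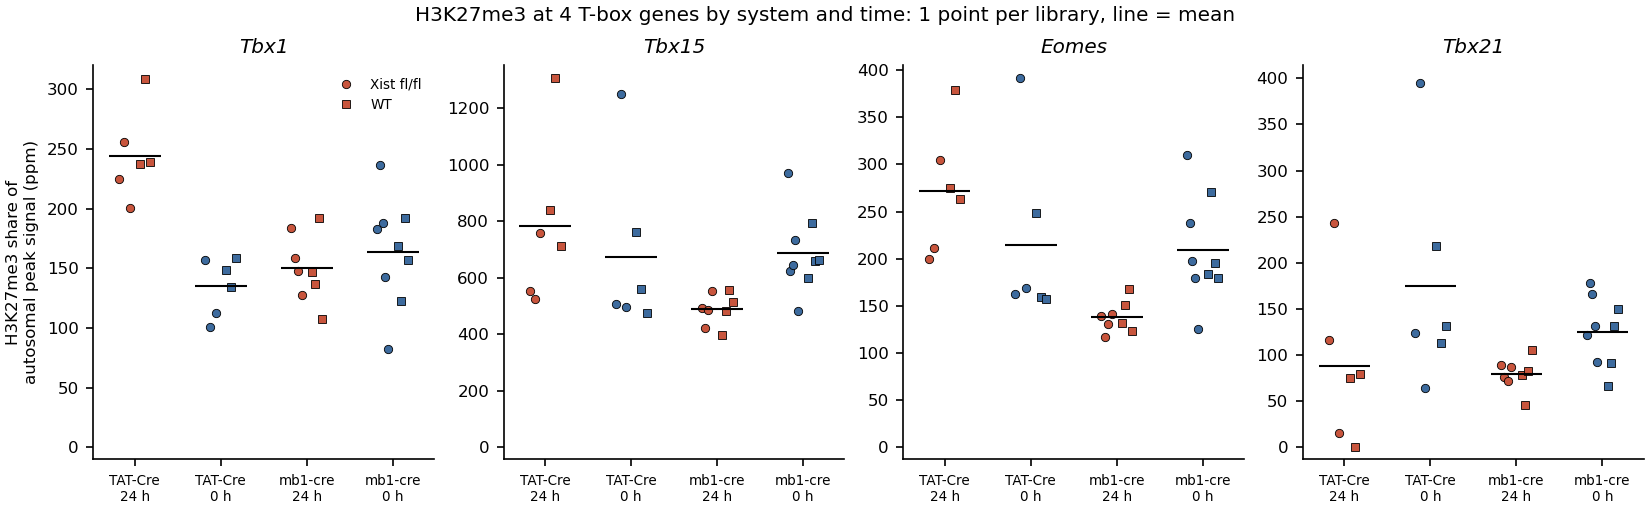
H3K27me3 signal share in ppm of autosomal peak signal, per library, for Tbx1, Tbx15, Eomes and Tbx21 in TAT-Cre and mb1-cre cells at 24 h and 0 h, with each point 1 library and the line the mean of a system at that time. Tbx1 in TAT-Cre cells separates 24 h (200.2 to 309 ppm) from 0 h (101 to 159 ppm), and the mb1-cre libraries overlap.

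H2AK119Ub was the mark with the most members called after CpG. It spread over Tbx1 and Tbx3 and appeared at Tbx5, Tbx6 and Tbx18, where no 0 h library had a peak, and it fell at Tbx2. By limma 6 of 10 members passed between 24 h and 0 h, 5 higher and 1 lower, where 44.4% of all 20695 genes tested passed (38.4% higher and 5.93% lower). The median log2 difference was 0.89 over the members, with the 3 that lacked 0 h peaks entered at 0 ppm, and 1.28 over all genes. A gene was tested where 3 or more libraries had a peak, and Tbx5, Tbx6 and Tbx18 met this through 24 h libraries alone, so that they could only come out higher. Their calls are given as a description. Among the other 7 members 3 passed, which is near the 44.4% of all genes.

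Tbx1 had an H2AK119Ub peak in 12 of 12 libraries at 24 h and 7 of 12 at 0 h. Its signal share ranged from 101 to 180.5 ppm (median 132) at 24 h and from 0 to 60.6 ppm (median 33.0) at 0 h, and its covered share from 77.9% to 100% (median 97.6%) at 24 h and from 0% to 53.8% (median 29.5%) at 0 h. The times did not overlap in any of the 4 groups of system and genotype. The log2 difference was 3.92 ± 0.81 (limma adjusted p = 0.000581). In trimmed lists Tbx1 had a peak in 11 of 12 lists at 24 h and 0 of 12 at 0 h. It entered the exact test of presence there through 24 h lists alone and could only come out higher. Its call is given as a description, without a p, and 28.9% of 4312 genes passed. In the lists as deposited, where 7 of the 12 libraries at 0 h had a peak, Tbx1 did not pass this test (adjusted p = 0.159). Tbx3 had a peak in 12 of 12 libraries at 24 h, with 28.7 to 84.4 ppm (median 55.7), and in 4 of 12 at 0 h, with 0 to 23.1 ppm (median 0). Every stimulated library was above every unstimulated one. The log2 difference of Tbx3 was 4.53 ± 0.66 (limma adjusted p = 1.36e-05).

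Tbx5 had a peak in 11 of 12 libraries at 24 h, with 0 to 87.7 ppm (median 55.7), and in 0 of 12 at 0 h. The library without one was mb1-cre Xist fl/fl. Tbx6, a factor of the paraxial mesoderm, had a peak in 10 of 12 and 0 of 12 (0 to 27.1 ppm, median 10.5, at 24 h), and Tbx18 in 5 of 12 and 0 of 12 (0 to 20.4 ppm, median 0, at 24 h). No fold or p is given for these 3 genes, whose 0 h libraries were all at 0. The longest 0 h list, mb1-cre WT replicate 2 with 40486 peaks, had no peak at Tbx3, Tbx5, Tbx6 or Tbx18. With the 4 H2AK119Ub lists under 3000 peaks left out, Tbx1 (2.15, adjusted p = 0.00449), Tbx2 (-0.38, adjusted p = 0.0488) and Tbx3 were still past the threshold by limma. Tbx5, Tbx6 and Tbx18 could again only come out higher, and of them Tbx18 no longer passed.

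Tbx2 was covered by 97.6% of its window at 24 h and 100% at 0 h, and its signal share fell. It held 144 to 275 ppm (median 184) at 24 h and 201 to 541 ppm (median 314) at 0 h, a log2 difference of -0.77 ± 0.19 (limma adjusted p = 0.00286). In trimmed lists the difference was -0.09 (adjusted p = 0.407), so the call did not hold there. In the same lists Tbx15 (0.66, limma adjusted p = 0.00176) and Eomes (0.49, limma adjusted p = 0.0162) passed. Tbx1 passed and Tbx3 did not, but both had a peak in 0 of 12 of these lists at 0 h. These 2 could only come out higher there, so no fold or p is given. Tbx5, Tbx6 and Tbx18 had too few peaks to be tested. Of all 5380 genes tested in those lists 47.2% passed.

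The remaining members, among them Tbx21, kept H2AK119Ub at both times. Tbx21 held 94.8 to 311 ppm (median 148) at 24 h and 80.5 to 365 ppm (median 147) at 0 h, and 12 of 12 libraries of each time had a peak (log2 difference -0.05 ± 0.24, limma adjusted p = 0.867). The sign turned with the scaling, to 2.46 in trimmed lists (adjusted p = 0.0608) and to 0.81 when the whole signal of each touching peak was counted (adjusted p = 0.0189). The 2 kb on either side of its start were covered by 100% in all 24 libraries. Eomes held 102 to 201 ppm and 98.5 to 302 ppm (adjusted p = 0.222), Tbx15 held 193 to 373 ppm and 141 to 518 ppm (adjusted p = 0.860), and Tbx4 held 140.0 to 284 ppm and 137 to 367 ppm (adjusted p = 0.368). Tbx4 changed in width rather than in signal share, with 55.7% ± 14.7 of its window covered at 24 h and 39.9% ± 8.3 at 0 h (limma on covered percent, adjusted p = 0.0273). In trimmed lists the means of its groups lay closer, at 41.9% to 52.2% at 24 h and 35.9% to 40.9% at 0 h. H2AK119Ub lists were longer at 24 h, and the part of list length in this width was not tested. Counted from the lowest coordinate, the 5 parts of the Tbx4 window were covered by 95.0%, 93.7%, 48.6%, 24.3% and 17.0% at 24 h and by 97.4%, 87.1%, 12.2%, 3.0% and 0% at 0 h. The Tbx4 start region whose CpG were counted above lies in the second of these parts. The difference between systems in the change of H2AK119Ub with time passed at 0 of 10 members (beside 0.00966% of all genes).

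**Figure D3:**
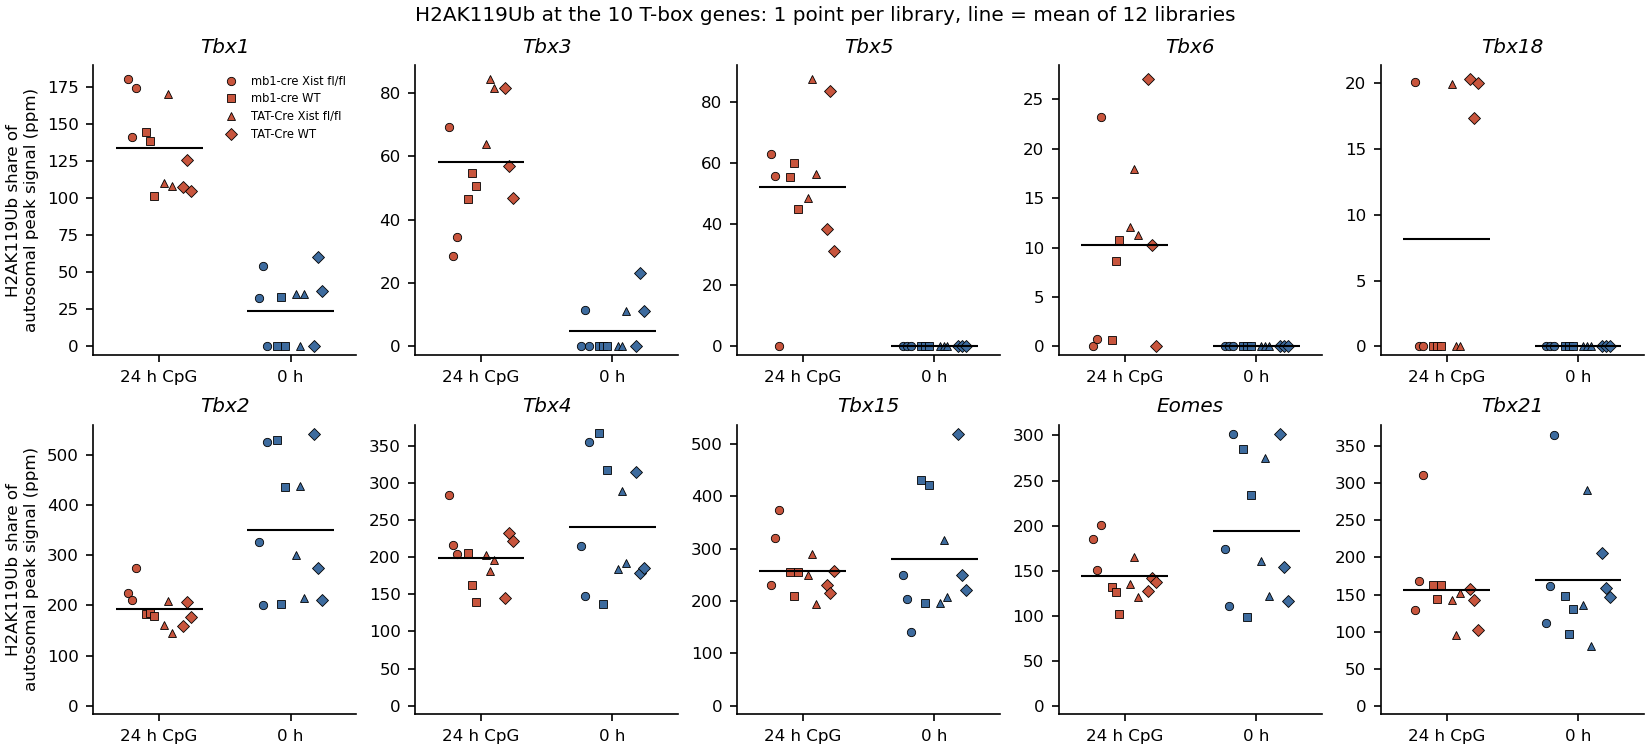
H2AK119Ub signal share in ppm of autosomal peak signal for each member, 24 h left of 0 h, with each point 1 library and the line the mean of 12 libraries. Tbx1 and Tbx3 lie higher in all 24 h libraries, Tbx5, Tbx6 and Tbx18 are at 0 in all 0 h libraries, and Tbx21 overlaps between the times.

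The marks were also set against each other base by base, counting bases under peaks in more than 50% of libraries of a time. At 24 h H3K27me3 filled the whole windows of Tbx1, Tbx2, Tbx3 and Eomes, so any H2AK119Ub there had to lie under it. H3K27me3 took 23.1 of 33.7 kb at Tbx4, 38.0 of 92.7 kb at Tbx5 and 28.6 of 118 kb at Tbx15, and in these 3 genes 100% of the H2AK119Ub bases (15.8, 3.75 and 25.8 kb) lay under it. None of the 1.38 kb of H2AK119Ub at Tbx6 did. At Tbx1 the H2AK119Ub bases came to 13.5 kb at 24 h and 1.73 kb at 0 h of a 13.7 kb window, and at Tbx3 to 9.47 kb and 0 kb. At Tbx21 the overlap was partial at 24 h: 68.7% of its 16.9 kb of H2AK119Ub lay under H3K27me3 at 24 h, against 94.6% of 17.4 kb at 0 h. There the H3K27me3 bases came to 11.6 kb at 24 h and 17.6 kb at 0 h. These counts pool both systems. In mb1-cre cells H3K27me3 covered a mean of 77.8% of the Tbx21 window at 24 h and 80.5% at 0 h in Xist fl/fl cells. In WT cells of that system the means were 63.0% and 57.9%. The TAT-Cre WT libraries, whose 24 h cells also met the enzyme, lay lower at 24 h. With a member counted as marked when over 50% of libraries had a peak, 8 of 10 members had both Polycomb marks and no H3K27ac at 24 h (17.7% of 21631 protein-coding genes) and 6 of 10 at 0 h (13.3%). Tbx3 and Tbx5 made the difference, having H3K27me3 alone at 0 h. Tbx18 had H3K27me3 alone at both times. Tbx6 had none of the marks at 0 h, and H2AK119Ub with H3K27ac at 24 h.

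H3K27ac was found at Tbx6 and at no other member in any of 24 libraries. Tbx6 had a peak in 11 of 12 libraries at 24 h, with 0 to 81.0 ppm (median 35.4), and in 5 of 12 at 0 h, with 0 to 55.2 ppm (median 0). The log2 difference was 2.48 ± 0.72 (limma adjusted p = 0.00735), where 54.2% of 9709 genes passed (46.2% higher and 7.95% lower) and the median over all genes was 1.66. In TAT-Cre cells 5 of 6 libraries had a peak at 24 h and 1 of 6 at 0 h, and in mb1-cre cells 6 of 6 and 4 of 6. The call did not hold over the gene body alone (1.53, adjusted p = 0.0545) or in trimmed lists (1.37, adjusted p = 0.0864). In the test of presence in trimmed lists Tbx6 had 3 of 12 and 0 of 12 (adjusted exact p = 0.301, where 28.4% of 1753 genes passed). The difference between systems in the change at Tbx6 did not pass (1.49 ± 1.44, adjusted p = 0.545, where 5.36% of genes passed). The start of Tbx6 was covered in 7 of 12 libraries at 24 h and 3 of 12 at 0 h. Its 8.07 kb window overlaps those of Ypel3 and Ppp4c, which were covered by 80.3% and 61.6% at 24 h, against 36.7% and 23.6% at 0 h, so the peaks cannot be assigned to 1 of these genes. Of the other members, Tbx21 lay nearest to H3K27ac, with the nearest peak 5.02 to 24.3 kb from its gene body (median 10.6 kb), followed by Eomes at 20.3 to 774 kb (median 101 kb). The medians of the other 7 were 390.2 to 927 kb.

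Upstream of Tbx21, outside its window, H3K27ac was found in 2 stretches. Both stretches described here were chosen after their values were seen, so no test is given, and distances run upstream from the Tbx21 start. From 9 to 22 kb upstream, in the gap before Tbkbp1 and over the near end of its body, no H3K27me3 library had a peak. H2AK119Ub covered 91.4% ± 10.8 of this stretch at 24 h and 14.3% ± 15.8 at 0 h (SD, n = 12 each), with a peak in 12 of 12 and 6 of 12 libraries. H3K27ac was present in the same stretch in 12 of 12 and 8 of 12 libraries, with 140.5 to 308 ppm (median 169.6) at 24 h and 0 to 219 ppm (median 121) at 0 h. Libraries at 0 were seen in the TAT-Cre system at 0 h. There the libraries held 235, 308 and 232 ppm at 24 h and 0, 85.6 and 0 ppm at 0 h in Xist fl/fl cells, and 184, 257 and 158.5 ppm and 0, 0 and 144 ppm in WT cells. In mb1-cre cells they held 147, 181 and 141 ppm at 24 h and 219, 155 and 126 ppm at 0 h in Xist fl/fl cells, and 152, 140.5 and 148 ppm and 191, 196 and 116.5 ppm in WT cells, which overlap. The 3 shortest H3K27ac lists, of 1329 to 1501 peaks, were TAT-Cre 0 h lists, and their part was not tested.

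From 22 to 34 kb upstream, farther inside the body of Tbkbp1 (20.8 to 36.2 kb upstream), which encodes an adaptor of the kinase Tbk1, H3K27ac was lower after CpG in both systems. All 24 libraries had a peak there, with 56.5 to 127 ppm (median 72.3) at 24 h and 165 to 440.3 ppm (median 255) at 0 h, and the times did not overlap. H2AK119Ub covered 89.3% ± 13.3 of this stretch at 24 h and 46.9% ± 25.5 at 0 h. For the gene as a whole, Tbkbp1 fell in H3K27ac by limma (log2 difference -1.34 ± 0.19, adjusted p = 1.06e-05) and was higher in H2AK119Ub (1.23, adjusted p = 0.0492).

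**Figure D4:**
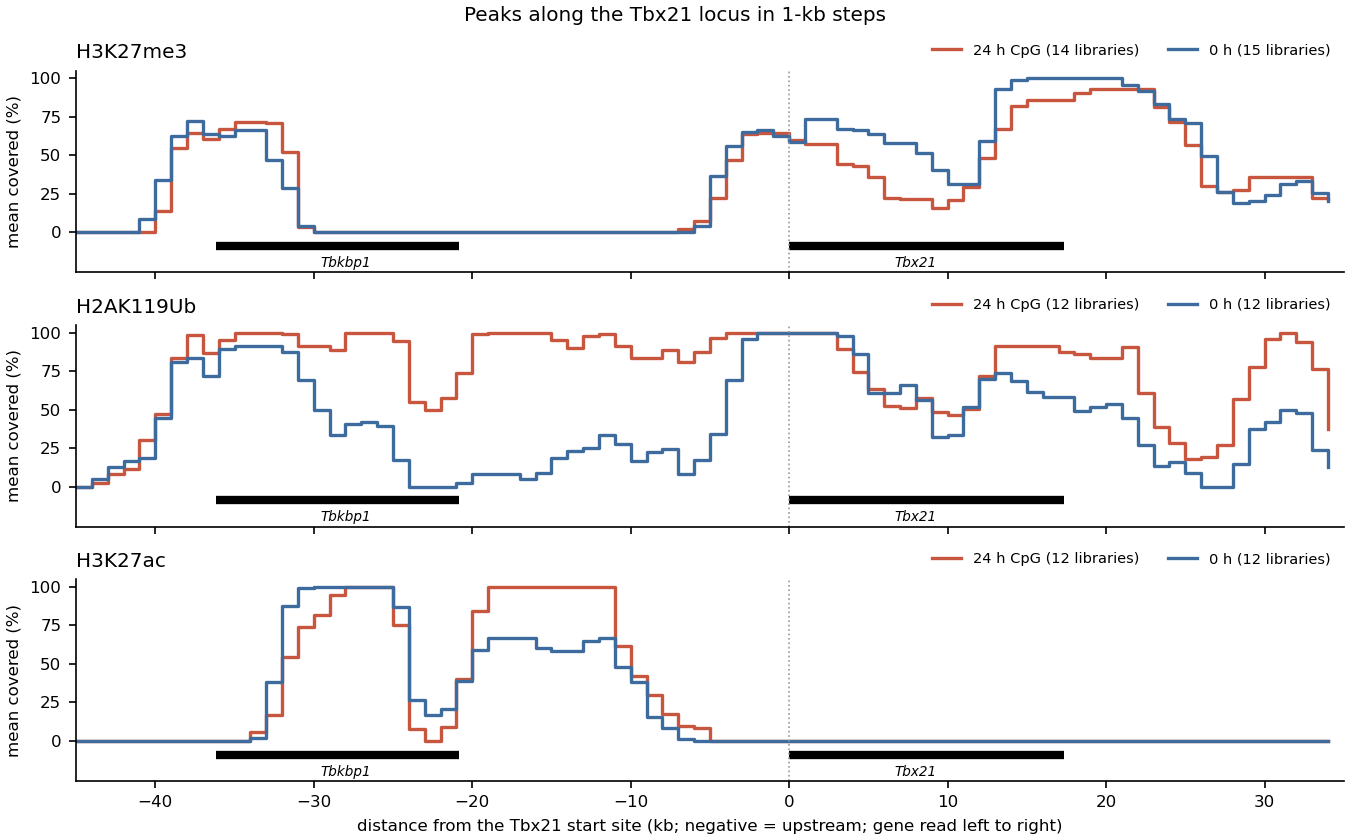
Mean percent of each 1 kb bin under peaks of the 3 marks around Tbx21, against the distance in kb from its start, at 24 h and 0 h over all libraries of the mark. H2AK119Ub between 9 and 22 kb upstream covers 91.4% at 24 h and 14.3% at 0 h, H3K27me3 is 0 there, and H3K27ac stays off the gene itself.

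**Figure D5:**
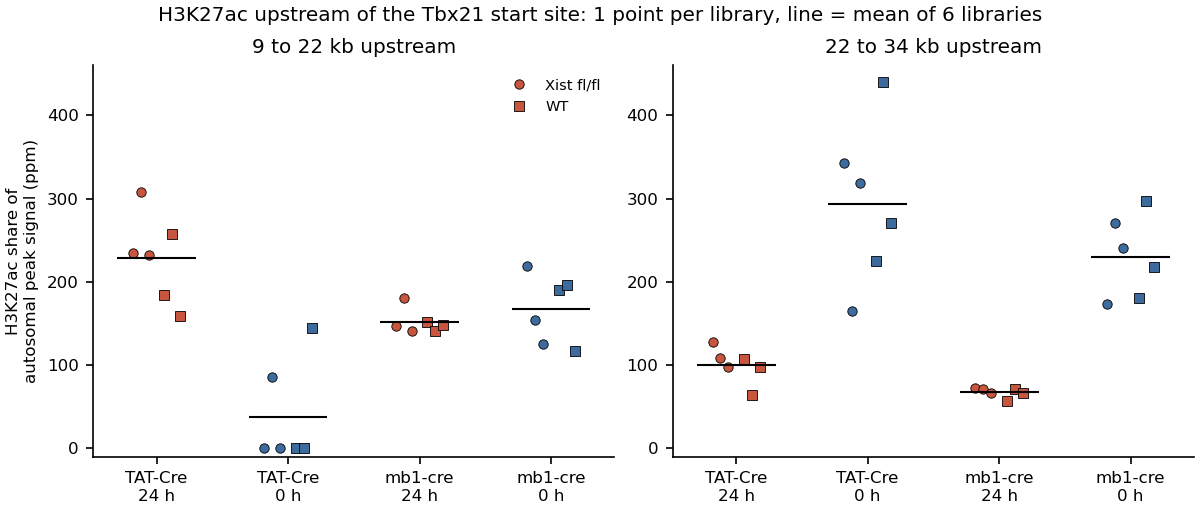
H3K27ac signal share in ppm per library in the stretches 9 to 22 kb and 22 to 34 kb upstream of the Tbx21 start, by system, genotype and time, with 24 h left of 0 h and the line the mean of 6 libraries. In the farther stretch all 24 h libraries (56.5 to 127 ppm) lie below all 0 h libraries (165 to 440.3 ppm), and in the nearer stretch the TAT-Cre 0 h libraries include 4 at 0.

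No member passed the threshold between Xist fl/fl and WT cells in any mark. The comparison took the 3 settings in which Cre had acted, mb1-cre at 0 h and 24 h and TAT-Cre at 24 h, with 12 Xist fl/fl and 11 WT libraries for H3K27me3 and 9 of each for the other marks. By limma 0 of 9, 0 of 10 and 0 of 1 tested members passed for H3K27me3, H2AK119Ub and H3K27ac, where 0.0343%, 0.237% and 0.536% of all genes did. An unadjusted p under 0.05 was found for 653, 1160 and 861 genes. The exact test of presence called 0 of 7789, 0 of 16824 and 0 of 6420 genes (0.0%), with an unadjusted p under 0.05 for 149, 177 and 70. Tbx21 was covered by H3K27me3 over 70.1% ± 30.3 of its window in Xist fl/fl cells and 48.7% ± 32.6 in WT cells, a log2 difference of signal share of 0.85 ± 0.56 (adjusted p = 0.964), and its H2AK119Ub covered 77.4% and 72.7% (0.28 ± 0.28, adjusted p = 1).

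The smallest unadjusted p among the members was that of Tbx6 in H3K27ac. In Xist fl/fl cells 6 of 9 libraries had a peak, with 0 to 42.1 ppm (median 18.2), and in WT cells 9 of 9, with 23.3 to 81.0 ppm (median 38.1). The groups overlapped. The log2 difference was -2.29 ± 0.83, with an unadjusted p of 0.0125 and a limma adjusted p of 0.442, and the median over all genes was -0.55. In mb1-cre cells at 24 h the covered share averaged 42.5% in Xist fl/fl and 69.3% in WT cells, which overlap (exact permutation p = 0.4). In mb1-cre cells at 0 h it averaged 10.5% in Xist fl/fl and 51.3% in WT cells, and in TAT-Cre at 24 h 9.43% and 38.9%, both without overlap (exact permutation p = 0.1 each, the smallest possible). The TAT-Cre lists at 24 h held 4263, 3646 and 6195 peaks in Xist fl/fl cells and 7398, 5421 and 9916 in WT cells. The mb1-cre lists at 0 h held 3080, 3145 and 4693 against 4751, 3174 and 4888. The part of list length in these values was not tested. The difference between genotypes in the change with CpG passed at 0 members by limma, where 0.0171%, 0.0338% and 0.0721% of all genes passed for H3K27me3, H2AK119Ub and H3K27ac.

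Genes that act with T-bet were read in the same way, as a list of 21 genes from the Tlr9, interferon gamma and Il12 pathways and of T-bet's partners and targets. In H2AK119Ub 12 of the 20 tested were higher and 1 lower at 24 h, where 38.4% of all genes were higher and 5.93% lower, with a median log2 difference of 2.43 against 1.28 over all genes, genes without 0 h peaks entered at 0 ppm. Several of these genes, among them Il12rb1, Tlr9 and Il21r, were tested through their 24 h libraries, having fewer than 3 libraries with a peak at 0 h, so the count is a description. Il12rb1, a chain of the Il12 receptor, had a peak in 11 of 12 libraries at 24 h and 0 of 12 at 0 h. Tlr9, the receptor of CpG, had 11 of 12 and 1 of 12, and Il21r had 10 of 12 and 1 of 12. Irf1 had 11 of 12 and 3 of 12 (3.98, limma adjusted p = 0.000295). The gene that fell was Prdm1, the plasma cell factor Blimp-1 (-0.52, adjusted p = 0.00493), named after its value was seen. In H3K27ac 7 of 15 were higher and 3 lower, where 46.2% of all genes were higher and 7.95% lower, with a median of 1.67 against 1.66 over all genes. Zbtb32, a repressor induced in activated B cells, had a peak in 12 of 12 libraries at 24 h and 0 of 12 at 0 h, and Prdm1 in 9 of 12 and 0 of 12, so both were tested through 24 h libraries alone. Stat4, which carries the Il12 signal, fell (-1.21, adjusted p = 3.85e-06), as did Tbkbp1 and, named after its value was seen, Il21r (-0.54). In H3K27me3 0 of 8 passed, where 3.35% of all genes did, with a median of 0.12 against 0.35. Ifng, the cytokine that T-bet drives in T cells, had no H3K27me3 or H3K27ac peak in any library. Between genotypes 0 of the list passed in any mark.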

How the data were processed

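CUT&RUN peak lists of H3K27me3, H2AK119Ub and H3K27ac from CD23+ splenic B cells were used, 1 for each library. The submitters' processing notes name Trimmomatic 0.32, Bowtie2 2.3.4.1, Picard, deepTools 3.5.1 and the build mm10. The deposited lists give each peak's summed signal, its highest signal and its position. Their unit is signal in whole numbers, and nothing shows that 2 lists use the same scale. The peak caller's version and control, and any scaling to spike-in DNA, are not stated. Antibody was 3 µg per the labels, or 1.5 µg in the case of H2AK119Ub.

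A peak belonged to a gene if it touched the body or 2 kb on either side by 1 bp. Covered share is the percent of this window under peaks. Signal share is the peak signal inside the window, split by length, in ppm of the signal of all peaks on the 19 autosomes. Log2 of signal share plus 1 ppm was tested with limma 3.58.1 (R 4.3.3, mean trend) over genes that 3 or more libraries had a peak at, as 8 groups of system, genotype and time, with Benjamini-Hochberg adjustment and a threshold of 0.05. On this scale the added 1 ppm shrinks changes of low genes, while libraries without a peak enter with no signal and can enlarge a fold. Presence was tested by an exact conditional test within strata, for time in lists trimmed by total signal to the shortest of the mark and for genotype in the lists as deposited. Single covered shares were compared by exact two-sided permutation within a stratum, unadjusted. Both tests were tested on simulated data. Tables were made with Python 3.11.15 and pandas 2.3.3.

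Replicates are called biological in the labels and no animals are named, so a p-value covers only the spread among these libraries, which may be technical. Same-numbered replicates did not deviate together, so no pairing was used. Replicate 5 of H3K27me3 in mb1-cre Xist fl/fl cells was placed at 0 h by its title, although its treatment field says stimulated. All 10 members are named. Of the lists, up to 4 genes each with the smallest limma p are named, and other names are said to be chosen after their values were seen. Members, lists, tests and alternatives were chosen with earlier results of these data known.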

Additional observations from a re-analysis of the deposited data

Results flagged for a closer look

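Of 58 sets of values tested, 8 held a library far from the others of its group, and chance gives about 1 in 20. The comparison needs 4 libraries in a group, which H3K27me3 in the mb1-cre system alone has, so no other mark or system was looked at in this way. In Xist fl/fl cells at 24 h, Tbx21 was covered by 100% in replicate 4 (others 67.3% to 72.9%), and Tbx18 held 118.8 ppm in replicate 1 (others 115.2 to 115.7 ppm). At 0 h, Xist fl/fl replicate 1, with 1950 peaks the shortest list of the mark, stood apart at Tbx1 (58.3% covered, others 97.8% to 100%), Tbx21 (30.8%, others 89.3% to 100%) and Tbx18 (240.4 ppm, others 89.4 to 125 ppm). In WT cells, Tbx15 was covered by 29.7% in replicate 4 at 24 h (others 24.8% to 25.5%). At 0 h, WT replicate 2, with 2704 peaks, had 58.0% at Tbx1 (others 97.7% to 98.2%) and 0% at Tbx18 (others 28.6% to 32.5%). The part of list length in these values was not tested.

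The change of H3K27me3 with time differed between TAT-Cre and mb1-cre cells, by a test of the difference itself, at Eomes (0.96 log2), Tbx1 (0.95) and Tbx15 (0.72).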

How the results depend on the processing

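Of the tested results of the members under the alternatives, 336 kept their direction and side of the threshold, 25 kept the direction and were no longer past it, 1 came past it and 34 turned in sign. Trimming the lists to the shortest of the mark changed most. It left 3 members called in H2AK119Ub between 24 h and 0 h, 0 in H3K27ac (0 also over the gene body alone), and 1 in H3K27me3. The 3 in H2AK119Ub included Tbx1, which was tested there through 24 h lists alone. Fewer genes were then tested, and the split of calls over all genes moved: 1534 higher and 1005 lower of 5380 in H2AK119Ub (47.2% called) against 7952 and 1228 of 20695 (44.4%), 714 and 585 of 2655 in H3K27ac (48.9%) against 4489 and 772 of 9709 (54.2%), and 90 and 103 of 4892 in H3K27me3 (3.95%) against 333 and 58 of 11663 (3.35%). The all-gene median differences were then 0.68, 0.13 and 0.05. The difference between systems in H3K27me3 was called at 1 member in trimmed lists, with whole peak signal and with covered percent, at 0 without the trend, at 5 with a replicate block and at 5 with replicate 5 at 24 h. Leaving out 1 library in turn gave 0 to 6, with 0 without TAT-Cre WT replicate 2 of either time and 1 without mb1-cre WT 0 h replicate 2, TAT-Cre WT 0 h replicate 3, TAT-Cre Xist fl/fl 0 h replicates 1 or 3, or TAT-Cre Xist fl/fl 24 h replicate 3. It gave 5 without mb1-cre Xist fl/fl 0 h replicate 5 and 6 without TAT-Cre Xist fl/fl 0 h replicate 2. The replicate block moved no other count of members by over 1.5 times. Presence in H2AK119Ub between times was called at 3 members in the lists as deposited and at 2 in the upper 50% by highest signal, and in H3K27ac at 1 in the upper 50%.

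Signs turned only in differences that had not passed, except Eomes and Tbx15 between systems, which are in the report. In H3K27me3 between times, trimmed lists gave 0.010 at Tbx4, 0.027 at Tbx15 and 0.15 at Eomes, covered percent gave -1.73 at Tbx3, 0.030 at Tbx15 and -1.11 at Tbx18, whole peak signal gave -0.17 at Tbx2 and replicate 5 at 24 h gave -0.026 there. Leaving out 1 library in turn gave -0.17 to 0.026 at Tbx4, -0.070 to 0.52 at Tbx18 and -0.14 to 0.020 at Eomes. In H2AK119Ub between times, trimmed lists gave 0.30 at Tbx4, 0.66 at Tbx15, 2.46 at Tbx21 and 0.49 at Eomes, and the upper 50% gave 0.79 at Tbx15 and 1.45 at Tbx21. Whole peak signal gave 0.12 at Tbx4 and 0.81 at Tbx21, covered percent gave 15.8 at Tbx4, 2.37 at Tbx15, 8.06 at Tbx21 and 2.28 at Eomes, and the body alone gave 0.0074 at Tbx15. Without lists under 3000 peaks they were 0.15 at Tbx4, 0.18 at Tbx15, 0.19 at Tbx21 and 0.079 at Eomes, and leaving out 1 library in turn gave -0.13 to 0.053 at Tbx15 and -0.16 to 0.068 at Tbx21. Tbx21 turned to -0.77 between genotypes in H2AK119Ub in the upper 50%. Between systems in H3K27me3, covered percent gave -2.75 at Tbx15 and -0.42 at Eomes, and trimmed lists gave 1.64 at Tbx21. The cause was not tested.

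Counts over all genes ranged under the alternatives from 193 to 588 (391 as reported) in H3K27me3 between times, 35 to 4338 (2744) between systems, 1 to 28 (4) between genotypes and 0 to 12 (2) for stimulation by genotype. In H2AK119Ub they were 2539 to 10437 (9180), 0 to 31 (2), 0 to 91 (49) and 0 to 34 (7), and in H3K27ac 1299 to 6387 (5261), 115 to 1340 (520), 13 to 181 (52) and 0 to 125 (7). Presence between times gave 0 to 50 (44) in H3K27me3, 576 to 2046 (1246) in H2AK119Ub and 156 to 2483 (497) in H3K27ac, and between genotypes 0 to 4 (0) in H3K27me3. Without read depth, absence of a peak in a short list cannot be told apart from low depth.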

Other observations

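The other 7 T-box genes of the table were read in the same way. In H2AK119Ub 3 of 6 tested were higher at 24 h and 1 lower by limma, where 38.4% of all genes were higher and 5.93% lower, with a median log2 difference of 1.68 against 1.28 over all genes, genes without 0 h peaks entered at 0 ppm. T (Brachyury), the mesoderm factor that gave the family its name, had a peak in 10 of 12 libraries at 24 h and 0 of 12 at 0 h, and Tbx20, a heart factor, in 5 of 12 and 0 of 12, so both were tested through 24 h libraries alone. Tbx10 had one in 12 of 12 and 7 of 12 (2.70, adjusted p = 0.00863). Tbr1, a factor of cortical neurons and the nearest relative of Eomes, fell (-1.34, adjusted p = 1.58e-05). Tbr1, T and Tbx20 had H3K27me3 in all 29 libraries, and 0 of 4 genes tested passed in that mark between the times, where 3.35% of all genes did. Mga, a T-box protein that pairs with Max and is widely transcribed, had H3K27ac in 10 of 12 libraries at 24 h and 4 of 12 at 0 h (3.07, adjusted p = 0.0164, where 46.2% of all genes were higher). Between genotypes 0 of them passed in any mark.

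Genes over 100 kb from Tbx21 with the most similar signal share across libraries were Cfdp1 (Pearson r = 0.89), Rab34 (0.89) and Zfp811 (0.88) in H3K27me3, over 29 libraries and 11370 genes searched. In H2AK119Ub they were Notum (0.77), Mzb1 (0.76) and Stn1 (0.75), over 24 libraries and 20160 genes. Among the members, Eomes was nearest to Tbx21 in H2AK119Ub (0.54) and Tbx4 in H3K27me3 (0.06). All values come from the same lists and share their length and total signal.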
